A study of Mus musculus with 25 samples.

Results

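The genes described here are 4 ribosomal proteins and the paralog of each, *Rpl22* with *Rpl22l1*, *Rpl7* with *Rpl7l1*, *Rps27* with *Rps27l* and *Rpl3* with *Rpl3l*, taken as a fixed list of 8 genes out of the 23116 in the deposited table. All 8 were found there, and each pair was also read as a ratio within each library. RNA-seq data came from HSLAM cells, bone marrow cells sorted as LSK+ CD150+ CD48- and rich in hematopoietic stem cells, of 3 *Znf143 f/f* and 3 *Znf143 -/-* mice. They were 3 littermate pairs of male C57BL/6 mice of 8 to 12 weeks with loxP sites around the first exon of *Znf143*, and all received the middle dosage of tamoxifen and were analysed after 10 days. The *Znf143 -/-* mice carried *Rosa26ERT2-cre* and the *Znf143 f/f* mice did not, so that Cre activation and the deletion come together. Which libraries make up a pair is not given in the sources used here, so that the tests are unpaired. *Rosa26ERT2-cre* is active in many cell types and not only in blood. The comparison asks how the balance within each paralog pair stood in stem cells without *Znf143*.

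Each ribosome carries a set of proteins on its RNA, and most of these proteins come from a single active gene. A few have another gene whose protein can take the same place or serves in ribosome assembly. RPL22 binds RNA on the surface of the large subunit and is known for its part in lymphocyte development, and it holds down *Rpl22l1* by binding the *Rpl22l1* transcript. RPL7L1 is related to a yeast factor of large subunit assembly in the nucleolus. RPS27L can replace RPS27 in the small subunit, and its gene is a known target of p53. RPL3 lies near the peptidyl transferase centre, and RPL3L takes its place in striated muscle.

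On GRCm38, *Rpl22* (ENSMUSG00000028936.15) lies on chromosome 4 from 152325742 to 152334071 and *Rpl22l1* (ENSMUSG00000039221.10) on chromosome 3 from 28805436 to 28807424. *Rpl7* (ENSMUSG00000043716.13) lies on chromosome 1 from 16101295 to 16104662 and *Rpl7l1* (ENSMUSG00000063888.7) on chromosome 17 from 46773907 to 46782672. *Rps27* (ENSMUSG00000090733.6) lies on chromosome 3 from 90212522 to 90213651 and *Rps27l* (ENSMUSG00000036781.13) on chromosome 9 from 66946086 to 66949516. *Rpl3* (ENSMUSG00000060036.14) lies on chromosome 15 from 80077791 to 80091868 and *Rpl3l* (ENSMUSG00000002500.15) on chromosome 17 from 24727820 to 24736143. No paralog lies on the chromosome of its partner.

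The paralogs of a pair differ enough in sequence for a read to tell them apart. *Rps27* and *Rps27l* are shown because their ratio is described most fully below and because both coding sequences (GENCODE release for GRCm38, principal transcripts) are 255 bases long. Capitals mark the 61 bases at which they differ.
Rps27: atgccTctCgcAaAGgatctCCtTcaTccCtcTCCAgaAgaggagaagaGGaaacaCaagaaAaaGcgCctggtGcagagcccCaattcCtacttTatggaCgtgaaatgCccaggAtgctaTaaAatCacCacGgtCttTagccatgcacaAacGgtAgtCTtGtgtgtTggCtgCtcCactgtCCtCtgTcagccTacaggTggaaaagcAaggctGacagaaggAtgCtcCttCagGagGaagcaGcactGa
Rps27l: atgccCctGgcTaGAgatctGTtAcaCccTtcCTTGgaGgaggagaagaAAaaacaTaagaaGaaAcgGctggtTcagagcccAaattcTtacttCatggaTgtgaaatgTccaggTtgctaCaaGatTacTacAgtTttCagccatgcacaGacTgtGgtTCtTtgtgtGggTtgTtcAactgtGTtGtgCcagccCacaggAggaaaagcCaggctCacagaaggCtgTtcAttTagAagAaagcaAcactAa
These coding sequences were 76.1% identical, 54 of 85 codons held a difference, and the longest run of bases shared by any of their annotated transcripts was 11, whereas reads were 76 bases long. For *Rpl22l1* and *Rpl22*, aligned coding bases were 75.4% identical, with a longest shared run of 26. For *Rpl7l1* and *Rpl7* the identity was 73.3% with a run of 22, and for *Rpl3l* and *Rpl3* it was 77.2% with a run of 22. No pair thus shared a run as long as a read.

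Start site windows are shown because most ribosomal protein transcripts open with a run of pyrimidines, the 5′ terminal oligopyrimidine motif, through which their translation is controlled. Promoters of RefSeq (GRCm38.p6) were found for 6 of the 8 genes. *Rpl7* and *Rpl3* were not matched. The windows below hold 15 bases before the listed start and 15 from it on, 5′ to 3′, for the 3 paralogs expressed in HSLAM cells and for *Rps27*, with the longest pyrimidine run in capitals.
Rpl22l1 (chr3:28805493-28805522, plus strand): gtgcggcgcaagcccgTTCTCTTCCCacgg
Rps27 (chr3:90213634-90213663, minus strand): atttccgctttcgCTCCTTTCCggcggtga
Rps27l (chr9:66946071-66946100, plus strand): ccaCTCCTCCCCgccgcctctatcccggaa
Rpl7l1 (chr17:46782642-46782671, minus strand): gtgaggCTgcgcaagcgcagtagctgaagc
The run was 10 bases long in *Rpl22l1*, 9 in *Rps27* and 9 in *Rps27l*. It was 2 bases long in *Rpl7l1*. *Rps27l* has 2 listed starts, of which the upstream is shown, and the run was 4 bases long at the other. The run of *Rpl22l1* began right after the listed start, that of *Rps27* spanned it, and that of *Rps27l* lay before it and so outside the transcript as listed. A run of at least 10 was found in 5.34% of all 32851 promoters, a run of at least 9 in 7.73%, and a run of at least 2 in 98.7%. A C followed by 4 or more pyrimidines, beginning within 5 bases of the listed start, was present in *Rpl22l1*, *Rps27* and the shown start of *Rps27l*. It was absent from *Rpl7l1*, from the other start of *Rps27l* and from both listed starts of *Rpl22* and of *Rpl3l*, and it was present in 18.3% of all promoters and 44.6% of the 65 promoters of other ribosomal proteins. The letters ACTACA and CCCANNATG, both part of the sequence that ZNF143 is known to bind, were searched on both strands of the 300 bases of each promoter. Neither was found in the promoters of the 6 matched genes, and they were found in 10.3% and 5.01% of all promoters. ZNF143 binding was not analysed here.

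The table gives FPKM, fragments per gene scaled by gene length and by the depth of the library. Fragments could be recovered from the FPKM, and 38643255 to 57895793 per library lay on genes. The FPKM of the third *Znf143 -/-* library had been divided by the total of the second (ratio of its own to this total 1.20), and therefore size factors (median of ratios) were used to rescale all FPKM given here. The targeted gene, listed as *Zfp143*, fell from 3.07, 4.43 and 3.66 FPKM in *Znf143 f/f* to 0.155, 0.298 and 0.270 FPKM in *Znf143 -/-* libraries (log2 fold change -3.50, SE 0.239, limma adjusted p = 0.001 by the Benjamini-Hochberg method, as for all adjusted p here, where SE is the standard error). The labels call these libraries CTCF knockouts, and the genotype is named here as the study describes it. All 8 stem cell markers had a mean of at least 1 FPKM, and their sum, most of it *Ly6a*, was 473 to 529 FPKM in *Znf143 f/f* and 751 to 799 FPKM in *Znf143 -/-* libraries. The sum of 5 myeloid markers, most of it *S100a8* (20.8 to 41.6 against 71.7 to 83.5 FPKM), and that of 5 megakaryocyte markers (540 to 620 against 671 to 1011 FPKM) were also higher in every *Znf143 -/-* library, though *Mpo*, *Ltf*, *Itgam* and *Gp9* among them overlapped, erythroid markers overlapped (at most 93.2 against 61.9 FPKM), and lymphoid markers, 3 of 5 of them in the table, summed to at most 0.198 FPKM. Their part in the results below was not tested.

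The libraries also differed in their content of ribosomal protein transcripts, and the genotypes overlapped in this content. The geometric mean of 75 other ribosomal proteins, 31 of the small and 44 of the large subunit, was 419, 670 and 446 FPKM in *Znf143 f/f* and 576, 343 and 377 FPKM in *Znf143 -/-* libraries. The second *Znf143 f/f* and the first *Znf143 -/-* library thus lay above the other 4. Of these 2 libraries, the *Znf143 -/-* library was the lower, and among the other 4 both *Znf143 -/-* libraries were lower. This split was made after the values were seen, and the part of the genotype was not tested. These 75 genes took 10.4% and 8.91% of all fragments in these libraries and 5.98% to 7.57% in the others. In bulk RNA, fewer cells of a type and less RNA per cell cannot be told apart.

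No gene of the list passed the test between genotypes. The 7 genes with a mean of at least 0.1 FPKM, all but *Rpl3l*, were tested with limma on log2(FPKM + 0.1) together with 19279 genes in all, of which 1154 (5.99%) had an adjusted p under 0.05, 578 higher and 576 lower in *Znf143 -/-*. Of the 7, 0 had an adjusted p under 0.05, and 0 had an unadjusted p under 0.05, which 4660 (24.2%) of all tested genes had. The FPKM of both genotypes overlapped in all 8 genes, whereas they did not overlap in 30.7% of all tested genes. With 3 mice against 3, a two-sided exact permutation test cannot give a p below 0.1, and for the 8 genes it gave 0.3 to 0.6.

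**Figure D1:**
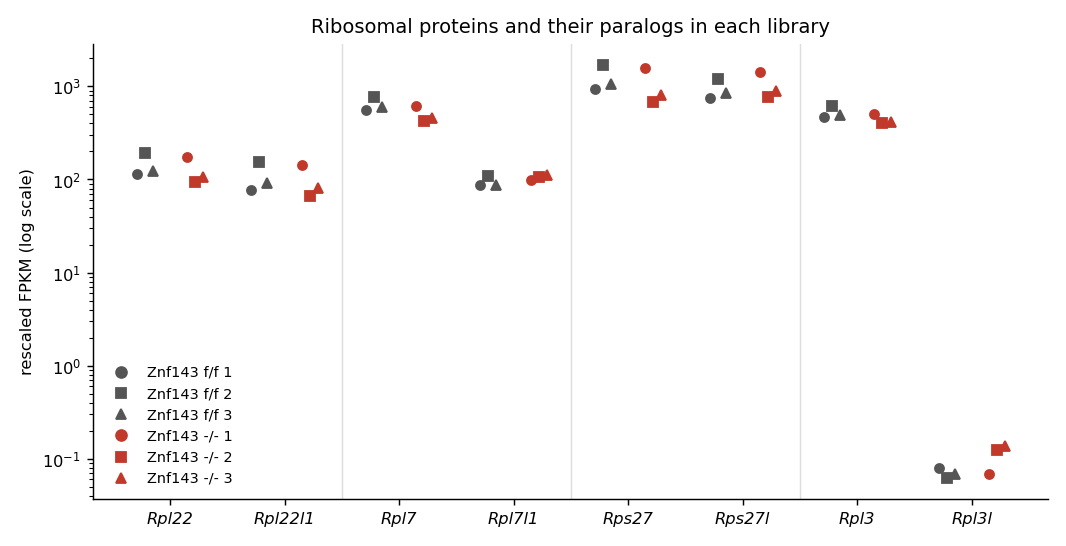
Rescaled FPKM (log scale) of the 8 genes in each library. Points are single libraries, grey for *Znf143 f/f* and red for *Znf143 -/-*, with circle, square and triangle for replicates 1, 2 and 3. In all genes but *Rpl7l1* and *Rpl3l*, the second *Znf143 f/f* and the first *Znf143 -/-* library are the 2 highest, and *Rpl3l* lies at 0.0618 to 0.136 FPKM.

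*Rps27*, which encodes a zinc finger protein of the small subunit, was at 928, 1712 and 1059 FPKM in *Znf143 f/f* and at 1562, 688 and 813 FPKM in *Znf143 -/-* libraries. The second *Znf143 f/f* and the first *Znf143 -/-* library, both rich in ribosomal protein transcripts, were far above the others, and the genotypes overlapped. Its log2 fold change was -0.31 (SE 0.368, limma adjusted p = 0.654). *Rps27l* was at 760, 1194 and 841 FPKM in *Znf143 f/f* and at 1425, 772 and 884 FPKM in *Znf143 -/-* libraries, again with these libraries on top. Its log2 fold change was 0.12 (SE 0.282, limma adjusted p = 0.841). The mean FPKM of *Rps27* was at or above that of 99.8% of all tested genes, and that of *Rps27l* at or above 99.7%.

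*Rpl7*, a protein of the large subunit, was at 564, 774 and 599 FPKM in *Znf143 f/f* and at 614, 430 and 463 FPKM in *Znf143 -/-* libraries. Its log2 fold change of -0.37 was the lowest of the 7 (SE 0.190, 95% CI -0.82 to 0.09, unadjusted p = 0.098 and limma adjusted p = 0.297). *Rpl7l1* was at 86.3, 110 and 88.2 FPKM in *Znf143 f/f* and at 97.6, 107 and 111 FPKM in *Znf143 -/-* libraries. It was the steadiest of the list, and its first *Znf143 -/-* library, the highest of that genotype for the other 6 tested genes, was here the lowest. Its log2 fold change was 0.15 (SE 0.120, 95% CI -0.13 to 0.44, limma adjusted p = 0.486).

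*Rpl22* was at 114, 194 and 124 FPKM in *Znf143 f/f* and at 174, 94.4 and 107 FPKM in *Znf143 -/-* libraries, with a log2 fold change of -0.21 (SE 0.287, limma adjusted p = 0.698). *Rpl22l1* was at 77.3, 153 and 91.7 FPKM in *Znf143 f/f* and at 142, 66.1 and 81.9 FPKM in *Znf143 -/-* libraries, with a log2 fold change of -0.16 (SE 0.348, limma adjusted p = 0.818). In both genes the second *Znf143 f/f* and the first *Znf143 -/-* library were the highest. The 95% CIs reached from -0.90 to 0.47 for *Rpl22* and from -0.996 to 0.67 for *Rpl22l1*, so that changes of either sign within these bounds could not be told from the spread between mice.

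*Rpl3* was at 463, 618 and 488 FPKM in *Znf143 f/f* and at 508, 406 and 415 FPKM in *Znf143 -/-* libraries, with a log2 fold change of -0.24 (SE 0.159, 95% CI -0.61 to 0.14, limma adjusted p = 0.417). *Rpl3l*, its counterpart in muscle, had 5 fragments in each *Znf143 f/f* library and 5, 10 and 13 fragments in the *Znf143 -/-* libraries. This made 0.0791, 0.0618 and 0.0689 FPKM against 0.0686, 0.124 and 0.136 FPKM, a mean below the 0.1 FPKM that a gene needed to be tested. Together, 15 fragments (exact Poisson 95% interval 8.40 to 24.7) stood against 28 fragments (18.6 to 40.5), where the intervals cover counting error only. At least 3 fragments were taken as detection. Of 8 striated muscle markers, 4 were in the table, and they summed to 0.273 to 0.594 FPKM per *Znf143 f/f* and 0.386 to 0.506 FPKM per *Znf143 -/-* library, with *Ckm* at most at 0.132 FPKM. Of these markers *Acta1*, the actin of skeletal muscle, was named after its values were seen. It was at most at 0.0295 FPKM in *Znf143 f/f* and at 0.205 to 0.238 FPKM in *Znf143 -/-* libraries (0 to 21 fragments per library, limma adjusted p = 0.0298). Its mean over all libraries, 0.118 FPKM, passed the filter of 0.1 FPKM only through the *Znf143 -/-* libraries. This p is therefore not independent of the filter, and the values lie near the pseudocount of 0.1. The other muscle markers in the table overlapped between genotypes. In *Znf143 f/f* against *Znf143 -/-* libraries, *Ckm* was at 0 to 0.132 against 0.00698 to 0.0235 FPKM. *Actn3* was at 0.140 to 0.512 against 0.107 to 0.179 FPKM, and *Tnnt3* at 0 to 0.0821 against 0.0142 to 0.141 FPKM. The part of muscle RNA in the values of *Rpl3l* was not tested.

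**Figure D2:**
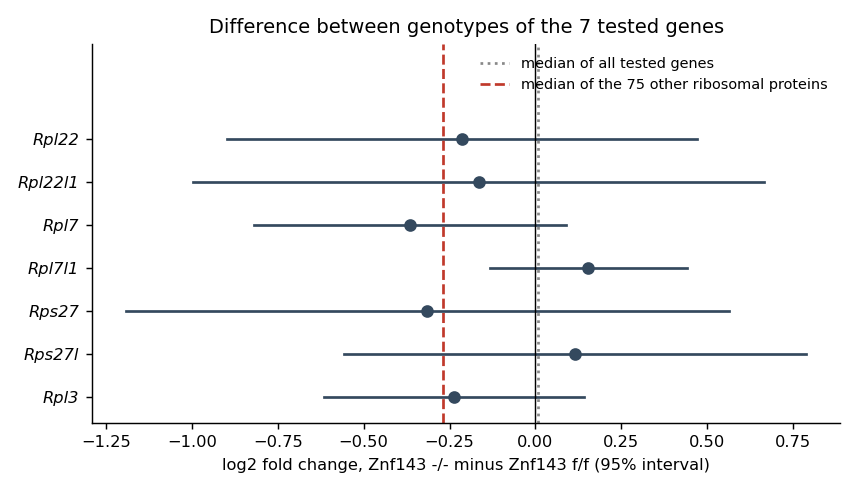
Log2 fold change (*Znf143 -/-* minus *Znf143 f/f*) of the 7 tested genes, with the 95% CI from limma. All intervals cross 0. The dashed line marks the median of the 75 other ribosomal proteins (-0.27) and the dotted line that of all tested genes (0.0065).

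Compared per kilobase, the order of levels in *Znf143 f/f* libraries was *Rps27*, *Rps27l*, *Rpl7*, *Rpl3*, *Rpl22*, *Rpl22l1*, *Rpl7l1* and *Rpl3l*. The ranges of FPKM overlapped between all neighbours in this order except *Rpl3* over *Rpl22* and *Rpl7l1* over *Rpl3l*. In *Znf143 -/-* libraries, *Rps27l* (mean 1027 ± 349 FPKM, SD, n = 3) stood before *Rps27* (1021 ± 473 FPKM, SD, n = 3) and *Rpl7l1* (105 ± 6.85 FPKM) before *Rpl22l1* (96.7 ± 40.0 FPKM), and both of these neighbours overlapped. For 6 of the 8 genes, the length in the table was that of all exons of the gene together, which for *Rpl7* is 2687 bases and for *Rps27* 1043 bases, longer than the coding transcripts, so that levels between genes depend on this choice and the comparison of genotypes does not. For *Rpl7l1* the length in the table was 2606 bases, against 3495 bases of exons in the annotation used here, and for *Rpl3* 3119 against 3175 bases.

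The ratio within a pair does not depend on how a library was scaled. In 2 of the 4 pairs, the paralog made up a larger percentage of its partner in every *Znf143 -/-* library than in any *Znf143 f/f* library, and in the other 2 pairs the genotypes overlapped. With 3 mice against 3, p = 0.1 in a two-sided exact permutation test is the smallest possible, so no ratio could pass a threshold of 0.05, and no p of a single pair was adjusted over the 4. For single genes, groups that do not overlap were found in 30.7% of all tested genes. No such share is given here for ratios within a library.

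*Rps27l* was at 81.9%, 69.7% and 79.4% of the FPKM of *Rps27* in *Znf143 f/f* libraries and at 91.2%, 112% and 109% in *Znf143 -/-* libraries. The means were 77.0% ± 6.44 and 104% ± 11.2 (SD, n = 3 each). The mean log2 ratio differed by 0.43, a 1.35-fold higher ratio in *Znf143 -/-* (two-sided exact permutation test, p = 0.1). The share of *Rps27l* in the sum of both genes was 41.1% to 45.0% in *Znf143 f/f* and 47.7% to 52.9% in *Znf143 -/-* libraries. The sum itself overlapped between genotypes, with 2164 ± 651 FPKM in *Znf143 f/f* and 2048 ± 822 FPKM in *Znf143 -/-* (SD, n = 3 each).

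*Rpl7l1* was at 15.3%, 14.3% and 14.7% of the FPKM of *Rpl7* in *Znf143 f/f* libraries and at 15.9%, 24.9% and 24.0% in *Znf143 -/-* libraries. The first *Znf143 -/-* library thus lay within 1 percentage point of the highest *Znf143 f/f* library, and the distance between the genotypes came from the other 2 *Znf143 -/-* libraries. The mean log2 ratio differed by 0.52, a 1.43-fold higher ratio in *Znf143 -/-* (two-sided exact permutation test, p = 0.1). In both this pair and the *Rps27* pair, the library richest in ribosomal protein transcripts had the lowest ratio of its genotype. The part of this difference between libraries in the ratios was not tested.

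*Rpl22l1* was at 67.6%, 78.7% and 74.0% of the FPKM of *Rpl22* in *Znf143 f/f* libraries and at 81.5%, 70.1% and 76.4% in *Znf143 -/-* libraries. The genotypes overlapped, and the mean log2 ratio differed by 0.05, less than its SD of 0.11 in either genotype (two-sided exact permutation test, p = 0.6). Without the first *Znf143 f/f* or the first *Znf143 -/-* library, the sign of this difference turned. *Rpl3l* was at 0.00999% to 0.0171% of the FPKM of *Rpl3* in *Znf143 f/f* and at 0.0135% to 0.0326% in *Znf143 -/-* libraries. These overlapped as well (difference of mean log2 ratios 0.83, two-sided exact permutation test, p = 0.3), and the difference was 0.52 with a pseudocount of 0.1 and 0.29 with one of 1 on both genes.

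**Figure D3:**
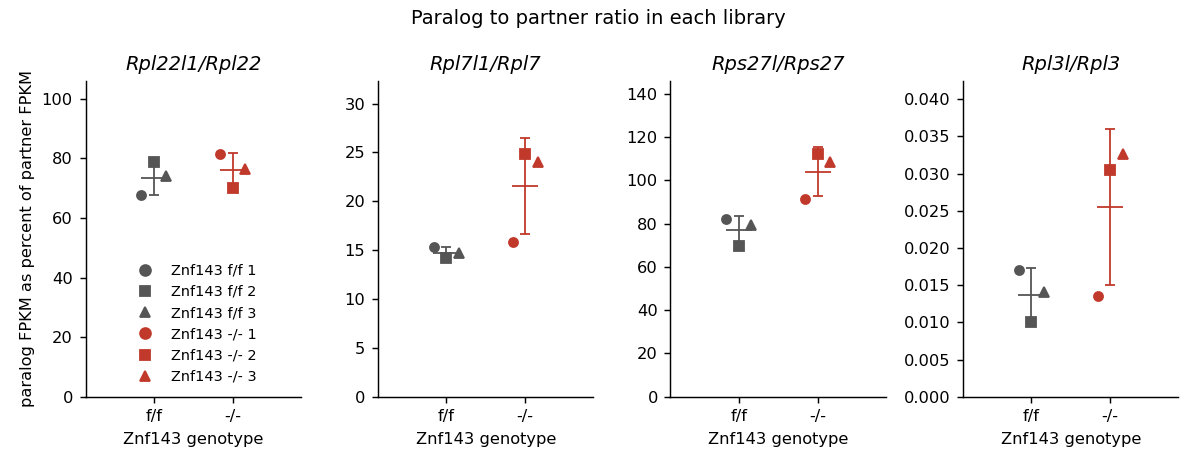
FPKM of each paralog as a percentage of the FPKM of its partner, from 0 upwards. Points are single libraries, and bars are the mean and SD of 3 libraries. For *Rps27l/Rps27* all *Znf143 -/-* libraries (91.2% to 112%) lie above all *Znf143 f/f* libraries (69.7% to 81.9%), for *Rpl7l1/Rpl7* the first *Znf143 -/-* library (15.9%) lies just above them, and the other 2 pairs overlap.

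Other pairs were listed for comparison, and 3 of them could be read as ratios. *Rpl39l*, expressed mainly in testis, was at 0.514% to 0.714% of *Rpl39* in *Znf143 f/f* and at 0.660% to 1.21% in *Znf143 -/-* libraries. *Rpl36al* was at 17.5% to 23.1% of *Rpl36a* against 22.8% to 26.3%. *Rps4l* was at 0.949% to 3.51% of *Rps4x* against 1.57% to 2.00%. The genotypes overlapped in all 3. The differences of mean log2 ratios were 0.37 for *Rpl39l/Rpl39*, 0.31 for *Rpl36al/Rpl36a* and -0.27 for *Rps4l/Rps4x*. *Rpl10* was at 395 to 590 FPKM in *Znf143 f/f* and 390 to 530 FPKM in *Znf143 -/-* libraries, and *Rpl10l* was not found in the table. None of the 7 genes of these pairs that were tested had an adjusted p under 0.05 (5.99% of all tested genes) or an unadjusted p under 0.05 (24.2%) with limma.

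Since the ratio of a pair can move through either gene, each gene was also set against the geometric mean of the 75 other ribosomal proteins in the same library, a comparison chosen after the data were seen and given without a test. *Rps27l* was at 1.81, 1.78 and 1.89 times this mean in *Znf143 f/f* and at 2.47, 2.25 and 2.34 times in *Znf143 -/-* libraries. Its libraries lay close together within a genotype on this measure, also the 2 that were richest in ribosomal protein transcripts, and the mean log2 values were 0.37 apart. *Rps27* was at 2.21, 2.56 and 2.38 times the mean in *Znf143 f/f* and at 2.71, 2.01 and 2.15 times in *Znf143 -/-* libraries, which overlapped. *Rpl7l1* was at 0.206, 0.165 and 0.198 times in *Znf143 f/f* and at 0.169, 0.312 and 0.294 times in *Znf143 -/-* libraries, and *Rpl7* at 1.16 to 1.35 times against 1.07 to 1.25 times, both with overlap. *Rpl22*, *Rpl22l1*, *Rpl3* and *Rpl3l* overlapped too, with differences of mean log2 values of 0.03, 0.08, 0.01 and 0.84.

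*Rps27l* was not alone in this. Of the 75 ribosomal proteins, each set against the geometric mean of the others, 12 (16%) did not overlap between genotypes, 7 with all *Znf143 -/-* libraries higher and 5 with all lower. Differences of mean log2 values ran from -0.42 to 0.83. *Rpl29*, named after its value was seen, had the highest of these (0.83).

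**Figure D4:**
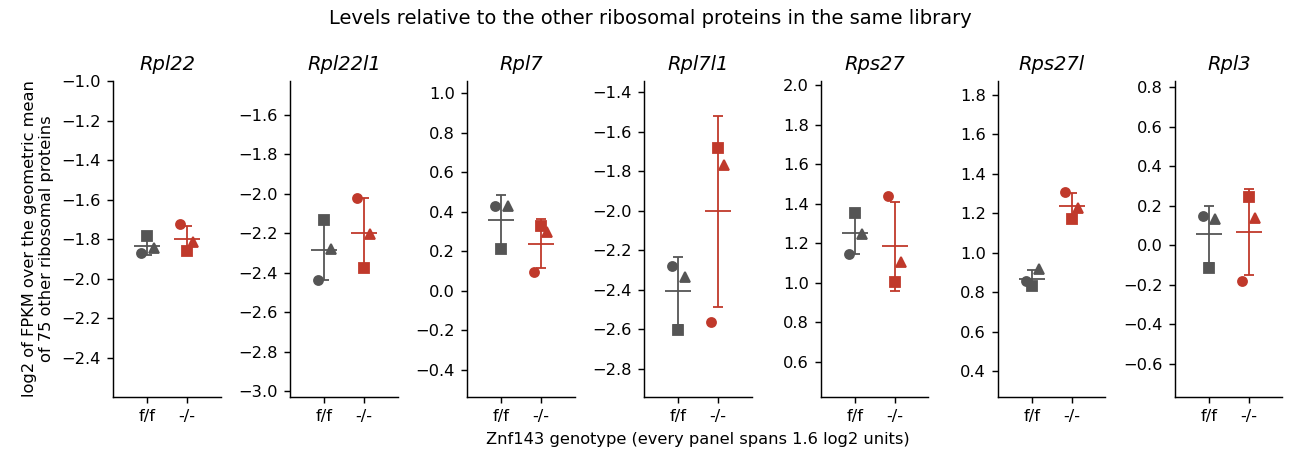
Log2 of the FPKM of each tested gene over the geometric mean of 75 other ribosomal proteins in the same library. Points are single libraries, with symbols and colours for library and genotype (grey *Znf143 f/f*, red *Znf143 -/-*, circle, square and triangle for replicates 1, 2 and 3), and bars are the mean and SD of 3 libraries. *Rps27l* lies at 0.83 to 0.92 in *Znf143 f/f* and at 1.17 to 1.31 in *Znf143 -/-* libraries, and the other 6 genes overlap.

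As a list, the 75 other ribosomal proteins were not called between genotypes either. With limma 0 of 75 had an adjusted p under 0.05, against 5.99% of all tested genes. An unadjusted p under 0.05 was found in 4 of the 75 (*Rpsa*, *Rpl5*, *Rpl13a* and *Rpl17*), against 24.2% of all tested genes. Their median log2 fold change was -0.27, against 0.0065 over all tested genes, with 70 below and 5 above 0. The small subunit (median -0.27 in 31 genes) and the large subunit (median -0.26 in 44 genes) were alike. Among the 8 genes of the list, *Rpl22*, *Rpl22l1*, *Rpl7*, *Rps27* and *Rpl3* had log2 fold changes on the same side, between -0.37 and -0.16, and *Rpl7l1* and *Rps27l* had values above 0.

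Over the 6 libraries, *Rpl22*, *Rps27* and *Rpl22l1* followed the mean log2 level of the 75 ribosomal proteins with a Pearson r of 0.996, 0.993 and 0.976. *Rpl3* and *Rpl7* had an r of 0.961 and 0.943, *Rps27l* of 0.844 and *Rpl7l1* of 0.062. All of these rest on the same 6 libraries, whose spread in ribosomal protein content they share, and are a description without a test. Between partners, r was 0.991 for *Rpl22l1* and *Rpl22*, 0.873 for *Rps27l* and *Rps27* and -0.147 for *Rpl7l1* and *Rpl7*.

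Among 12529 genes with a mean of at least 1 FPKM, those whose log2(FPKM + 0.1) was most like *Rpl22l1* over the 6 libraries were *Sub1*, a transcriptional coactivator, *Rpl24*, a protein of the large subunit, and *Gm11478*, with r from 0.998 to 0.999. *Rpl22* was at rank 50. Most like *Rps27l* were *Bola3*, which serves iron-sulfur cluster assembly in mitochondria, *Commd1*, a copper homeostasis factor, and *Atp5k*, a subunit of ATP synthase, each with an r of 0.999, and *Rps27* was at rank 966. Most like *Rpl7l1* were *Sord*, the sorbitol dehydrogenase, *Mrto4*, a factor of large subunit assembly, and *Phb2*, a prohibitin of the inner mitochondrial membrane, with r from 0.990 to 0.996. *Mrto4* was at 31.1, 36.3 and 32.1 FPKM in *Znf143 f/f* and at 33.8, 35.4 and 35.7 FPKM in *Znf143 -/-* libraries, the same order of libraries as *Sord*. Since these genes were picked as the highest of 12529 over 6 libraries, a high r follows from the choice. Shared control was not tested.

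*Rps27l* is known as a target of p53, and a list of 20 other p53 targets was therefore read beside it. With limma, 2 of the 20 had an adjusted p under 0.05, both higher, against 5.99% of all tested genes. An unadjusted p under 0.05 was found in 4 of the 20, against 24.2% of all tested genes. The genotypes did not overlap in 5 of the 20, against 30.7% of all tested genes. The median log2 fold change was 0.07 against 0.0065 over all tested genes. *Cdkn1a*, the p21 inhibitor of cyclin-dependent kinases, rose from 17.9, 16.7 and 17.2 FPKM in *Znf143 f/f* to 32.9, 30.7 and 30.6 FPKM in *Znf143 -/-* libraries (log2 fold change 0.86, SE 0.0760, limma adjusted p = 0.00252). *Pmaip1*, which encodes the cell death factor NOXA, rose from 0.0930 ± 0.0479 to 0.423 ± 0.0668 FPKM (SD, n = 3 each, log2 fold change 1.46, limma adjusted p = 0.0382). Its *Znf143 f/f* mean lay below the filter of 0.1 FPKM, so that *Pmaip1* entered the test only through the *Znf143 -/-* libraries. The pseudocount of 0.1 is close to this mean, and the fold change depends on it. *Cdkn1a* was called in all 16 alternatives. *Pmaip1* was called in 8 of the 15 alternatives in which it was tested (adjusted p from 0.0113 to 0.171 with limma). *Mdm2*, which encodes the ligase that degrades p53, was at 4.52 to 6.61 FPKM in *Znf143 f/f* and at 4.86 to 6.83 FPKM in *Znf143 -/-* libraries, and *Trp53* itself at 75.4 to 82.4 and 75.2 to 88.0 FPKM, both with overlap. The FPKM of *Rps27l* spanned 760 to 1194 in *Znf143 f/f* and 772 to 1425 in *Znf143 -/-* libraries, which overlapped. The part of p53 in the values of *Rps27l* was not tested.

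Several copies of the 4 ribosomal proteins are listed as genes of their own, and reads could be split between a gene and its copies, since the handling of reads with several matches is not given in the sources used here. *Rps27rt*, a retrocopy of *Rps27* on chromosome 9, shared a run of 341 bases with it and stood at 3.25% of its mean FPKM, with 30.1 to 51.3 FPKM in *Znf143 f/f* and 23.3 to 48.7 FPKM in *Znf143 -/-* libraries. *Rpl3-ps1* shared 728 bases with *Rpl3* and stood at 5.51% of it. *Rpl7-ps7* shared 197 bases with *Rpl7* and stood at 1.25% of it, with 8.62, 8.18 and 8.39 FPKM in *Znf143 f/f* and 6.71, 4.89 and 6.11 FPKM in *Znf143 -/-* libraries (limma adjusted p = 0.0723). *Rps27-ps1*, *Rpl3-ps2* and *Rpl22-ps1* stood at 0.190%, 0.180% and 1.77% of their parents. Adding the copies to the partner left the differences of mean log2 ratios at 0.43 for *Rps27l/Rps27*, 0.52 for *Rpl7l1/Rpl7*, 0.05 for *Rpl22l1/Rpl22* and 0.83 for *Rpl3l/Rpl3*.

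When the second *Znf143 f/f* and the first *Znf143 -/-* library were both left out, a step chosen after their ribosomal protein content was seen, 4 of the 7 genes had an adjusted p under 0.05 with limma, where 41.2% of all tested genes did. These were *Rpl7* (log2 fold change -0.38, adjusted p = 0.0117), *Rps27* (-0.41, adjusted p = 0.0455) and *Rpl3* (-0.21, adjusted p = 0.0293), all lower, and *Rpl7l1* (0.32, adjusted p = 0.00583), higher. *Rps27l* was at 0.05 (adjusted p = 0.714). The libraries were left out by a measure of the same kind as the one tested and 2 remained per genotype, so that these p-values are not independent of the choice. The differences of mean log2 ratios were then 0.45 for *Rps27l/Rps27* and 0.70 for *Rpl7l1/Rpl7*, with values in *Znf143 f/f* and *Znf143 -/-* libraries as given above.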

How the data were processed

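HSLAM RNA-seq libraries (SMART-Seq v4, paired-end reads of 76 bases) of 3 *Znf143 f/f* and 3 *Znf143 -/-* mice were used, grouped by the labels. The authors used TrimGalore for trimming, STAR for alignment to GRCm38 and FeatureCounts for counting. The annotation and the use of strand are not given in the sources used here. The authors deposited the FPKM of each library. Beside them, the authors deposited their own DESeq2 comparison, a mean count as signal, the log2 fold change, its standard error, a Wald test score and the p-value with and without adjustment, none of which was used.

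Fragments were recovered from FPKM times gene length (99.986% of 138696 values within 0.05 of a whole number, and the other 19 in no gene of the list). Size factors (median of ratios) rescaled the FPKM. Genes with a mean of at least 0.1 FPKM entered a limma 3.58.1 fit (R 4.3.3) of log2(FPKM + 0.1) (eBayes with a variance trend, no block) and Benjamini-Hochberg adjustment over all 19279 genes. A pair's ratio was log2 of paralog over partner FPKM, without a pseudocount, compared by a two-sided exact permutation test. The mice were pairs of littermates, but no source used here ties libraries to pairs, and the labels only number replicates 1 to 3 in each genotype. The fit was tested on simulated data. Python 3.11.15, pandas 2.3.3, scipy 1.17.1 and Biopython 1.88 were used. Transcripts and coordinates came from GENCODE for GRCm38 and promoters from RefSeq (GRCm38.p6). The 95% Poisson intervals cover counting error only. The libraries had 38643255 to 57895793 fragments on genes. With the totals used for the FPKM as deposited, 3 fragments on 1 kb stood at 0.0555 to 0.0777 FPKM.

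The genes and lists were chosen with earlier results of these data known. Named were all 8 genes, other paralog pairs, copies, of the subunit and p53 lists the 3 genes with the lowest adjusted p per direction among those under 0.05, and for 3 paralogs the 3 most similar genes. The alternatives were FPKM as deposited, each library divided by its own recovered total, pseudocounts of 0.01 and 1, no filter, a filter of 1 FPKM, voom on recovered fragments, no variance trend, a replicate block, each library left out and, for ratios, pseudocounts, percentage points and added copies. Chosen after seeing the data were the 75 ribosomal proteins as partner and leaving out 2 libraries together. ChIP-seq and HiC samples were not analysed here.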

Additional observations from a re-analysis of the deposited data

How the results depend on the processing

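The count of 1154 genes over the whole table depended on single libraries (223 to 2241 with each left out, lowest without the third *Znf143 -/-* library and highest without the second *Znf143 f/f* library, 2108 without the first *Znf143 -/-* library, and 7946 with both of the latter left out). As deposited, 833 genes passed, 63.5% of them higher, against 50.1% after rescaling. For the 7 tested genes of the list, 15 of 16 alternatives kept the count at 0, and 4 were called with the 2 libraries left out. Of the 75 ribosomal proteins, 2 were called with each library's own total and with voom (*Rpl5* and *Rpl17*), 2 without the first *Znf143 -/-* library (0 to 2 with each library left out) and 45 with the 2 libraries left out. Of the p53 targets, 1 was called with a pseudocount of 0.01, with a filter of 1 FPKM and with the replicate block, 1 to 2 with each library left out, and 7 with the 2 left out.

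With the replicate number as a block, 191 genes passed, and the deviations of same-numbered libraries correlated by -0.095, -0.088 and 0.035, which gives no sign that the numbers mark the littermate pairs. The smallest p of a paired test of 3 ratios is 0.25, reached by *Rps27l/Rps27* and *Rpl7l1/Rpl7*.

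The differences of log2 ratios with each library left out were 0.36 to 0.52 for *Rps27l/Rps27*, 0.40 to 0.73 for *Rpl7l1/Rpl7* and 0.60 to 1.24 for *Rpl3l/Rpl3*. For *Rpl22l1/Rpl22* they were -0.0081 to 0.11, with -0.0081 without the first *Znf143 f/f* and -0.0023 without the first *Znf143 -/-* library. Log2 fold changes lay between -0.48 and 0.021 for *Rpl22* (above 0 without the second *Znf143 f/f* library), between -0.48 and 0.12 for *Rpl22l1* (0.12 without that library and 0.07 without the second *Znf143 -/-* library) and between -0.15 and 0.31 for *Rps27l* (-0.016 without the first *Znf143 f/f* and -0.15 without the first *Znf143 -/-* library). They were -0.67 to -0.052 for *Rps27*, -0.52 to -0.23 for *Rpl7*, 0.090 to 0.27 for *Rpl7l1* and -0.34 to -0.11 for *Rpl3*. None of these values passed the threshold. Why libraries differ was not tested. Adjusted p over all alternatives lay between 0.00583 and 0.984. The 3 mice per genotype and the 5 to 13 fragments of *Rpl3l* limit the precision.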
